A study of Mus musculus with 36 samples.

Results

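The genes described here are those of the canonical cytosolic ribosomal proteins of the mouse, the protein parts of the ribosome that translates nuclear mRNAs. They were chosen by symbol, as every gene named *Rpl* or *Rps* with a number and, where present, a suffix a, x, y or l, a further number and a final l (as in *Rpl36al*, *Rps3a1* or *Rpl22l1*), together with *Rplp0*, *Rplp1*, *Rplp2* and *Rpsa*. The rule found 90 genes among 56262 gene IDs of the gonad tables and 57126 of the tables of primordial germ cells (PGCs). Of these, 89 had a mean of at least 1 TPM (a transcript level corrected for length, with an equal sum in all libraries) in at least 1 group, 54 of the large and 35 of the small subunit. *Rps12l1* did not reach 1 TPM in any group. By symbol RefSeq (GRCm38.p6) lists 85 of the 90 as protein coding and *Rps3a2*, *Rps3a3*, *Rpl6l*, *Rps12l1* and *Rps4l* as pseudogenes, so the symbol rule is wider than the set of functional genes. In gonads *Rpl3l* also stayed below 1 TPM, so 88 genes were tested there and 89 in PGCs.

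The 36 bulk RNA-seq libraries formed 12 groups of 3. Fetuses came from dams mated at 8 weeks of age with wild-type or *Oct4*-EGFP males, and the labels give the genotype as WT throughout. In the groups with intrauterine hyperglycemia (IUHG), dams had received streptozotocin (STZ, which kills pancreatic β cells) at 120 mg/kg by intraperitoneal injection on day 3.5 after a fast, and were kept if blood glucose exceeded 14 mM on day 6.5. No STZ is described for the control dams. Gonad libraries were whole gonads at E13.5, labelled female, control or IUHG, pooled within each sample, so they held germ and somatic cells. PGC libraries were control or IUHG cells sorted for EGFP from pooled fetuses at E12.5 (sex not determined), and from females and males at E13.5 and at E16.5. The samples are named replicates without a statement of which litters each pool held, so the p-values measure the spread between these pools.

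A ribosome has a large subunit, which holds the site of peptide bond formation, and a small subunit, which reads the mRNA. Most ribosomal proteins are present in equal number in a mature ribosome, and their mRNAs share a terminal oligopyrimidine tract through which mTOR signaling controls their translation. Several members have a second, diverged gene: *Rpl10l* and *Rpl39l* encode testis-enriched counterparts of the X-linked *Rpl10* and *Rpl39*, *Rpl3l* a counterpart of *Rpl3* known from striated muscle, and *Rpl22l1* and *Rps27l* close relatives of *Rpl22* and *Rps27*. PGCs are the fetal precursors of oocytes and sperm. Female PGCs enter meiosis from about E13.5, while male PGCs stop dividing as prospermatogonia.

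The sequences around the transcription starts of 3 pairs in which one gene fell and its paralog rose in male PGCs, and of *Rpl3l*, are shown because the results in male PGCs turn on these pairs. They run from 100 bases before to 20 bases after the RefSeq start nearest to the start of the gene in the gonad tables, on GRCm38.p6, 5′ to 3′ on the strand of the gene, with each CG dinucleotide in capitals.
Rpl10 (chrX:74270716-74270835, plus strand): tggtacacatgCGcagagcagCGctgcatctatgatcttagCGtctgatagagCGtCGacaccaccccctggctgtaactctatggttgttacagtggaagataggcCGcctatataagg
Rpl10l (chr12:66284382-66284501, minus strand): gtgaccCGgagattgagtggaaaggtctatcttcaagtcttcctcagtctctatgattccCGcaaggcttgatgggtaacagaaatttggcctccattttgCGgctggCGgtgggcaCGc
Rpl39 (chrX:37085203-37085322, minus strand): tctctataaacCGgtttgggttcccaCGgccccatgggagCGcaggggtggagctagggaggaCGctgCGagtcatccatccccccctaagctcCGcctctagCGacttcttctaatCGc
Rpl39l (chr16:10170128-10170247, plus strand): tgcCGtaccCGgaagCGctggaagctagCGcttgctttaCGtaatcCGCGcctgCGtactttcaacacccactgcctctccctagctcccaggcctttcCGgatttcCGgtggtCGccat
Rpl22 (chr4:152325626-152325745, plus strand): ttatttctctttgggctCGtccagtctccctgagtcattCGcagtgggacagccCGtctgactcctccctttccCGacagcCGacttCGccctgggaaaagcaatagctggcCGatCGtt
Rpl22l1 (chr3:28805408-28805527, plus strand): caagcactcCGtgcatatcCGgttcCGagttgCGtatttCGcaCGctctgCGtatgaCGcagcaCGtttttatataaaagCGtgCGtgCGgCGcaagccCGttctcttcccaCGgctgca
Rpl3l (chr17:24727726-24727845, plus strand): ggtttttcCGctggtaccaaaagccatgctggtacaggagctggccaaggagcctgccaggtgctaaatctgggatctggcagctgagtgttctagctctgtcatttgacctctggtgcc
In the 300 bases from 250 before to 50 after each start, these held 17 (*Rpl10*), 13 (*Rpl10l*), 17 (*Rpl39*), 17 (*Rpl39l*), 15 (*Rpl22*), 30 (*Rpl22l1*) and 2 (*Rpl3l*) CG dinucleotides. RefSeq promoter windows were matched by symbol for 65 of the 90 genes, which gave 77 windows. Their median was 21 CG dinucleotides, against 7 over all 32851 windows. The letters CCGGAA, the core that ETS factors bind, occurred on either strand in 36 of the 77 windows (46.75%) and in 14.9% of all windows. Of the 7 genes shown, *Rpl10*, *Rpl39* and *Rpl39l* held it. A match in this count is a run of letters and not a measured binding site. CCGGAA itself contains a CG, and no windows of like CG content were counted, so these shares do not separate the motif from CG content.

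Before the members, the libraries themselves were compared. Aligned sequence, read from the ratio of coverage to FPKM, was 3.89 to 4.95 gigabases in gonads and 3.25 to 8.32 gigabases in PGCs, and the number of reads behind a gene is not known from these units. The summed TPM of germ cell markers was 2620 to 9885 in PGCs and 504 to 821 in gonads. Erythroid marker sums were up to 579 TPM in PGCs and 10974 to 17236 TPM in gonads. The macrophage and endothelial lists each reached high sums in PGCs through 1 gene. *Fcer1g* was at up to 178 TPM in PGCs, while the other macrophage markers *Csf1r*, *Cx3cr1* and *Tyrobp* were at most 3.94, 1.11 and 13.1 TPM. *Pecam1* was at up to 208 TPM in PGCs, while the other endothelial markers *Cdh5*, *Kdr* and *Tie1* were at most 1.40, 1.18 and 15.4 TPM. Gonad control replicate 1 had a Sertoli cell marker sum of 230 TPM, against 24.2 to 34.2 TPM in the other gonad libraries, and a male germ line sum of 15.7 TPM, against 0.305 to 1.52 TPM. It goes against its label in these markers, and without it the same number of members, 2, was called in gonads. Some libraries stood apart in the ribosomal protein genes. In replicate 3 of IUHG E13.5 female PGCs, 83 of the 89 members were below all 5 other libraries of that comparison. In replicate 3 of IUHG E12.5 PGCs 60 were below and 22 above. The calls of members in these comparisons are given with and without these libraries, while marker sums, paralog shares and other gene lists include them. Control replicate 1 was above all 5 others in 53 members in E16.5 female PGCs (below in 1) and in 41 in E13.5 male PGCs (below in 4).

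Ribosomal protein genes supplied between 7.04% and 17.0% of all TPM in PGC libraries and between 9.92% and 10.6% in gonads. Their share was highest in male PGCs at E13.5, at 15.7%, 16.1% and 17.0% in control libraries, and lowest in female PGCs at E16.5, at 7.70%, 7.80% and 8.43%. Control PGCs at E12.5 had 11.2% ± 0.444 (SD, n = 3), female PGCs at E13.5 had 12.4% ± 0.915 and male PGCs at E16.5 had 11.5% ± 0.219. The libraries of these last 3 groups overlapped. TPM is a share of each library, so a lower value of these genes and a higher value of all others cannot be told apart.

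The large subunit took more of the TPM than the small subunit in every library, with a ratio from 1.27 to 1.59. In control PGCs the ratio was 1.29 ± 0.0141 at E12.5, 1.34 ± 0.0217 and 1.35 ± 0.00945 in E13.5 females and males, and 1.35 ± 0.0124 in E16.5 females. E16.5 males stood above them at 1.56 ± 0.0293 (SD, n = 3). In that group the large subunit genes had 7.01% of TPM and the small subunit genes 4.50%, against 9.33% and 6.92% in E13.5 males.

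**Figure D1:**
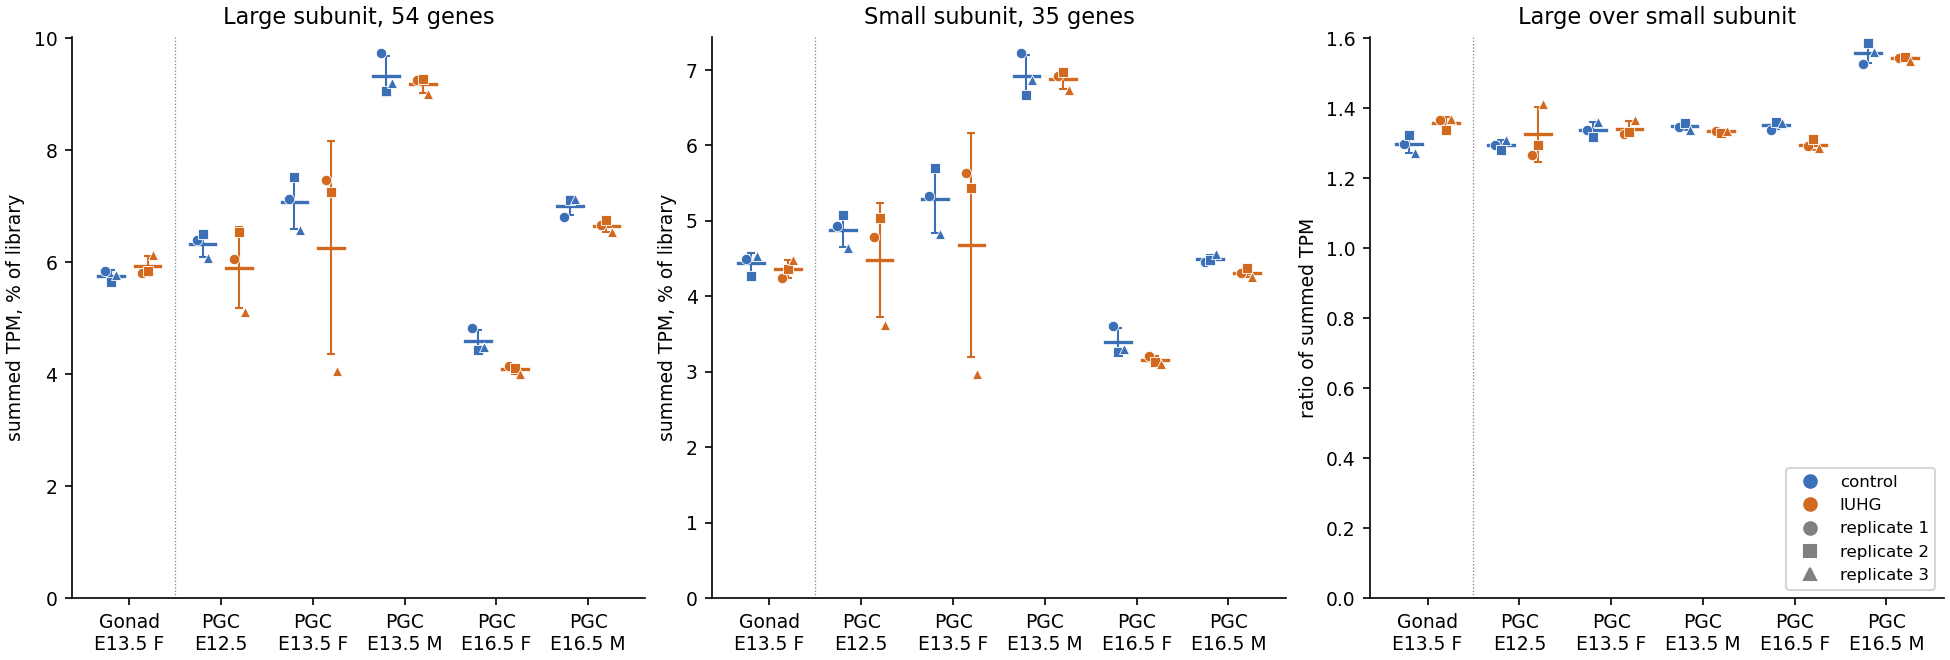
Summed TPM of the large subunit genes (left) and small subunit genes (middle) as a percentage of each library, and the ratio of these sums (right), for control (blue) and IUHG (orange) libraries; points are libraries with a marker shape for each replicate number, lines are means and bars are SD (n = 3). E13.5 male PGCs sit highest and E16.5 female PGCs lowest, and the ratio of E16.5 males, 1.56 in controls, is above that of all other groups.

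Single members differed widely around these sums. In control PGCs the members with the highest levels included *Rpl13*, a large subunit gene that reached 7539 TPM in E13.5 males, and the small subunit gene *Rps14* (6498 TPM) in the same group. Over the 85 members with at least 100 TPM in a control PGC group, the highest group mean was a median of 2.79 times the lowest, and 17 members had a ratio of at least 4. The least variable was *Rps19*, at 1.56. Of the 85, 49 were highest in E13.5 males and 53 lowest in E16.5 females, so most of the members, but not all, moved with the sum.

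From E12.5 to E13.5 the members split in females, in shares that moved with the scaling, and most rose in males. In females, 38 members rose and 21 fell (limma, Benjamini-Hochberg adjusted over all genes, adjusted p under 0.05), where 39.7% of all tested genes rose and 20.3% fell. Of the large subunit 23 rose and 12 fell, and of the small subunit 15 and 9. The median log2 difference of the members was 0.21, below the 0.27 of all genes tested. With median-of-ratios scaling, which sets the all-gene median to 0.01, the members' median was -0.10, and 14 rose and 34 fell, where 29.3% and 30.4% of all genes did. With quantile normalization 41 rose and 18 fell, where 28.55% and 29.24% of all genes did and the all-gene median was -0.00092.

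*Rpl32*, *Rpl10a* and *Rpl14*, all of the large subunit, had the lowest p among those that rose in females. *Rpl32* went from 1930, 1887 and 1807 TPM at E12.5 to 3199, 3208 and 3067 TPM in E13.5 females, a log2 difference of 0.75 (SE 0.045, limma adjusted p = 9.7e-10). *Rpl10a* rose by a log2 difference of 0.85 and *Rpl14* by 0.70. In the other direction stood *Rplp0*, the base of the ribosomal stalk that binds elongation factors, at 2121, 2300 and 2128 TPM at E12.5 and 890, 979 and 969 TPM in E13.5 females. Its log2 difference was -1.20 (SE 0.058, limma adjusted p = 9.1e-11). Its stalk partner *Rplp1* rose by 0.94 (limma adjusted p = 3.1e-07), so genes of the same ribosomal structure moved in opposite directions. *Rpl5*, which with *Rpl11* and 5S rRNA forms a particle that can bind MDM2, fell by 0.64, while *Rpl11* was 0.24 higher, a direction that turned to -0.063 with median-of-ratios scaling. *Rpl7l1*, a relative of *Rpl7* tied to ribosome assembly, fell by 0.68.

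In males, 67 members were higher at E13.5 than at E12.5 and 8 lower, against 24.2% and 27.5% of all tested genes. The large subunit had 40 higher and 5 lower and the small subunit 27 and 3. The median log2 difference was 0.60 for members and -0.03 for all genes. *Rpl32* rose by 0.91 (SE 0.046, limma adjusted p = 7.9e-10), *Rpl14* by 0.93 and *Rps15*, a small subunit gene, by 1.12, from 2268, 2193 and 2070 to 5181, 4368 and 4659 TPM. The members that fell most clearly were *Rps3a3*, *Rps3a2* and *Rpl10l*. *Rps3a3*, a short gene related to *Rps3a1*, had 167, 184 and 173 TPM at E12.5 and 5.72, 5.25 and 5.04 TPM in E13.5 males, a log2 difference of -4.79 (SE 0.165, limma adjusted p = 1.5e-11).

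Between the sexes at E13.5, 15 members were higher and 57 lower in female than in male control PGCs, against 41.4% and 21.7% of all tested genes. The members' median difference was -0.38 and that of all genes 0.28. Scaling moved this split, to 3 higher and 72 lower with median-of-ratios scaling, where 29.9% and 32.7% of all genes were and the all-gene median was -0.03. With quantile normalization it was 22 and 39, where 32.2% and 31.4% of all genes were and the all-gene median was 0.02. *Rplp0* was 1.20 lower in females on the log2 scale, *Rps4l* 1.34 lower and *Rps14* 1.06 lower. *Rps4x*, an X-linked small subunit gene, was higher in females, with 2092, 2193 and 2178 TPM against 1148, 1134 and 1143 TPM in males (log2 difference 0.92, SE 0.054, limma adjusted p = 6.1e-10). *Rps3a3* and *Rps3a2* were 3.92 and 1.41 higher in females.

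**Figure D2:**
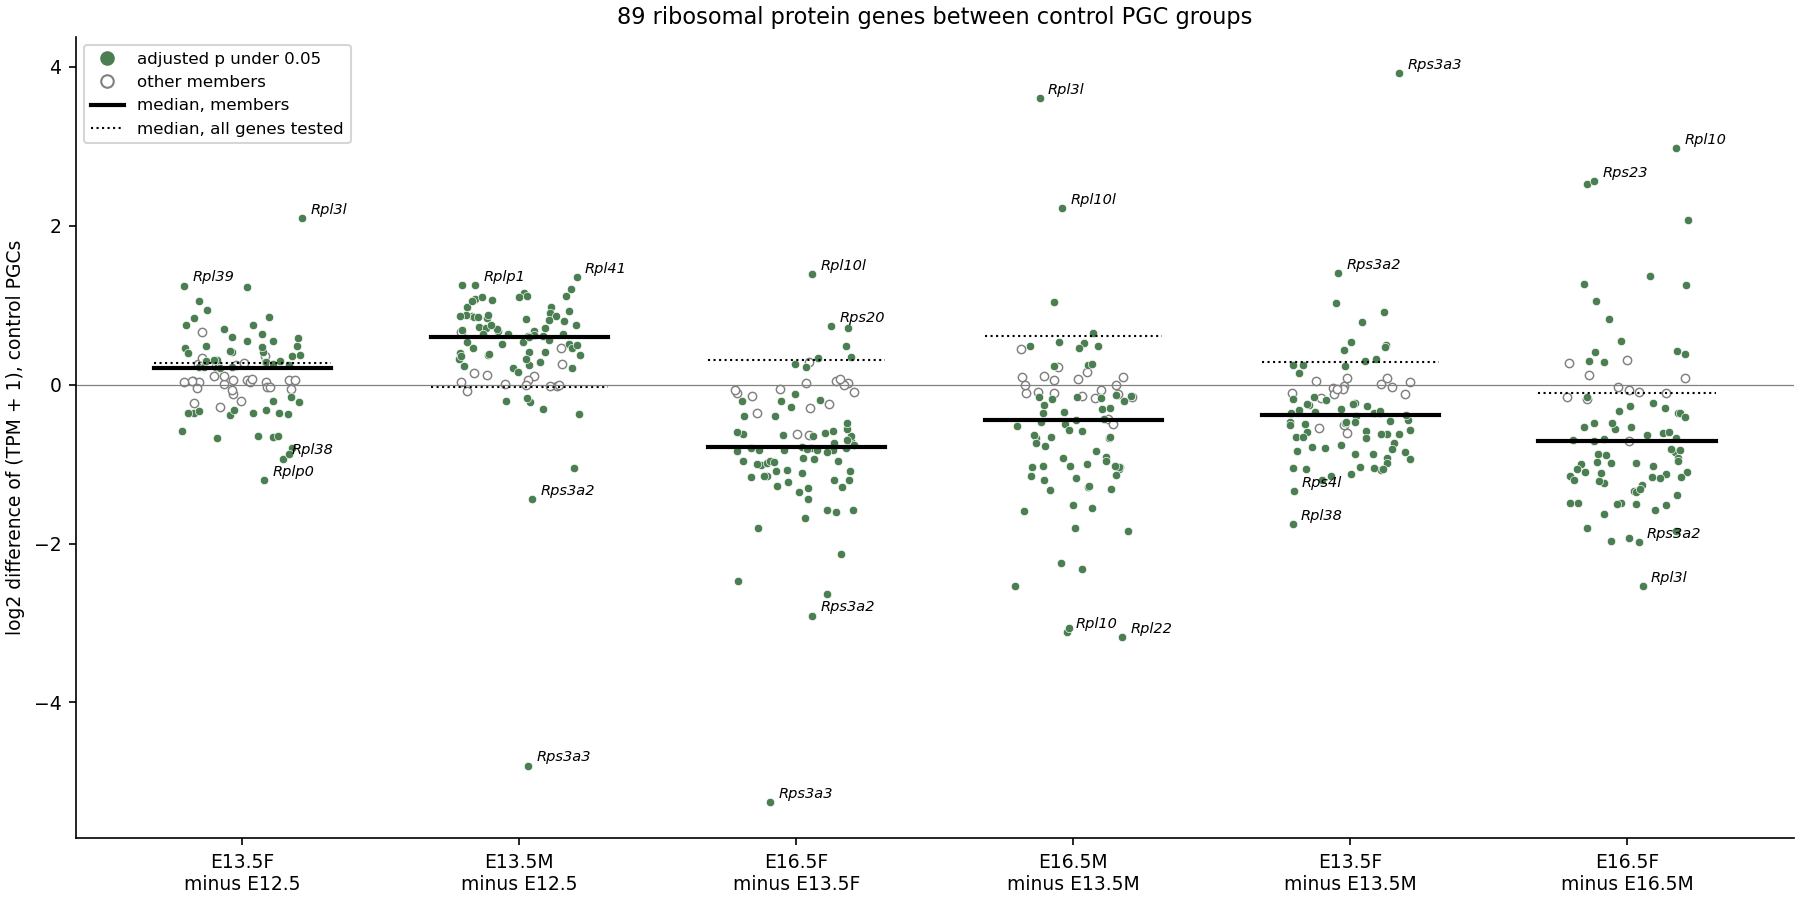
Log2 difference of (TPM + 1) of the 89 members in each of 6 comparisons between control PGC groups; filled points had an adjusted p under 0.05, thick lines are medians of the members and dotted lines medians of all genes tested, and up to 2 called members farthest from 0 on each side are named. The members' median lies above that of all genes only for E13.5 males against E12.5 (0.60 against -0.03).

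Later, from E13.5 to E16.5, most members fell in both sexes. In females 8 rose and 65 fell (4 and 41 of the large subunit, 4 and 24 of the small), where 42.3% of all tested genes rose and 24.5% fell, and the members' median was -0.78 against 0.31 for all genes. In males 12 rose and 57 fell (6 and 35, 6 and 22), where 53.1% of all genes rose and 23.8% fell, with medians of -0.44 and 0.62. Median-of-ratios scaling lowered the all-gene medians to 0.15 and 0.50 and the members' medians to -0.98 and -0.62. Quantile normalization set the all-gene medians to 0.06 and -0.03 and gave members' medians of -0.63 and -0.26.

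In females the falling members with the lowest p belonged to the small subunit. *Rps4x* went from 2092, 2193 and 2178 TPM to 352, 338 and 344 TPM, a log2 difference of -2.64 (SE 0.052, limma adjusted p = 6.6e-15). *Rps3a1*, whose protein sits near the mRNA exit of the small subunit, fell by 1.67 and *Rps2*, which lies at the mRNA entry, by 1.81. Against this direction *Rpl10l* and *Rps20* rose, by 1.39 and 0.74.

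In males 3 genes had the lowest p among those that fell. *Rpl10*, which completes the large subunit and joins it to the small one, went from 1385, 1404 and 1477 TPM at E13.5 to 184, 161 and 148 TPM at E16.5, a log2 difference of -3.11 (SE 0.069, limma adjusted p = 7.1e-14). *Rps23*, part of the decoding site, went from 1547, 1458 and 1501 to 271, 238 and 266 TPM (-2.54, SE 0.069, limma adjusted p = 3.1e-13). *Rpl11* went from 940, 856 and 909 to 189, 189 and 190 TPM (-2.24). In each of these genes every E16.5 library was below every E13.5 library. *Rpl5*, the 5S particle partner of *Rpl11*, fell less, at 1046, 1076 and 1061 against 935, 899 and 921 TPM (-0.21).

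The paralogs of 3 such genes rose while their partners fell in males. *Rpl10l* had 67.2, 65.4 and 78.7 TPM in E13.5 males and 336, 331 and 325 TPM in E16.5 males, a log2 difference of 2.22 (SE 0.084, limma adjusted p = 7.8e-12). The ratio of *Rpl10l* to *Rpl10* TPM went from 0.0494 ± 0.00345 to 2.02 ± 0.193 (SD, n = 3), so the paralog passed its partner. In E16.5 females the same ratio was 0.198 ± 0.0112, with *Rpl10* at 1348, 1273 and 1274 TPM.

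*Rpl39* fell from 730, 604 and 571 to 71.5, 74.8 and 78.0 TPM in males (-3.06, SE 0.232, limma adjusted p = 1.3e-08), and *Rpl39l* rose from 240, 234 and 227 to 495, 467 and 478 TPM (1.04, SE 0.086, limma adjusted p = 3.8e-08). Their ratio went from 0.371 ± 0.0373 to 6.43 ± 0.428. *Rpl22* fell from 590, 454 and 478 to 61.6, 58.8 and 45.5 TPM (-3.18, SE 0.152, limma adjusted p = 8.7e-11). *Rpl22l1* rose from 564, 597 and 580 to 936, 891 and 913 TPM (0.65, SE 0.121, limma adjusted p = 1.6e-04), which took the ratio from 1.16 ± 0.185 to 16.8 ± 2.82. In none of these 4 genes did the E13.5 and E16.5 male libraries overlap. From E13.5 to E16.5 in control females mean *Rpl10* went from 2002 to 1298 TPM and *Rpl10l* from 97.7 to 258 TPM. Mean *Rpl39* went from 1166 to 196 TPM and *Rpl39l* from 134 to 170 TPM. The opposite directions of these pairs were thus not particular to males, though neither paralog's mean passed its partner's in E16.5 females. Means of *Rpl22* (497 to 323 TPM) and *Rpl22l1* (545 to 459 TPM) were both lower in E16.5 females.

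Other pairs did not turn over in this way. *Rpl3l* rose from 3.52, 5.19 and 3.21 to 57.4, 56.9 and 61.7 TPM in males (3.60, SE 0.347, limma adjusted p = 1.9e-07), but *Rpl3* still had 544, 528 and 527 TPM, a ratio of 0.110 ± 0.00609. *Rps27l*, a p53 target, had 2656, 2469 and 2429 TPM in E13.5 males and 703, 690 and 709 TPM in E16.5 males (-1.84), and *Rps27* did not pass the test there. *Rps4l* exceeded *Rps4x* in E13.5 males (ratio 1.70 ± 0.00603), E16.5 males (1.55 ± 0.0142) and E16.5 females (1.26 ± 0.0632), and stayed below it in E13.5 females (0.355 ± 0.0320). *Rpl36al* and *Rpl36a* fell together in males, by 1.06 and 1.31. *Rpl7l1* fell by 1.52 in males, and *Rpl7* did not pass the test.

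**Figure D3:**
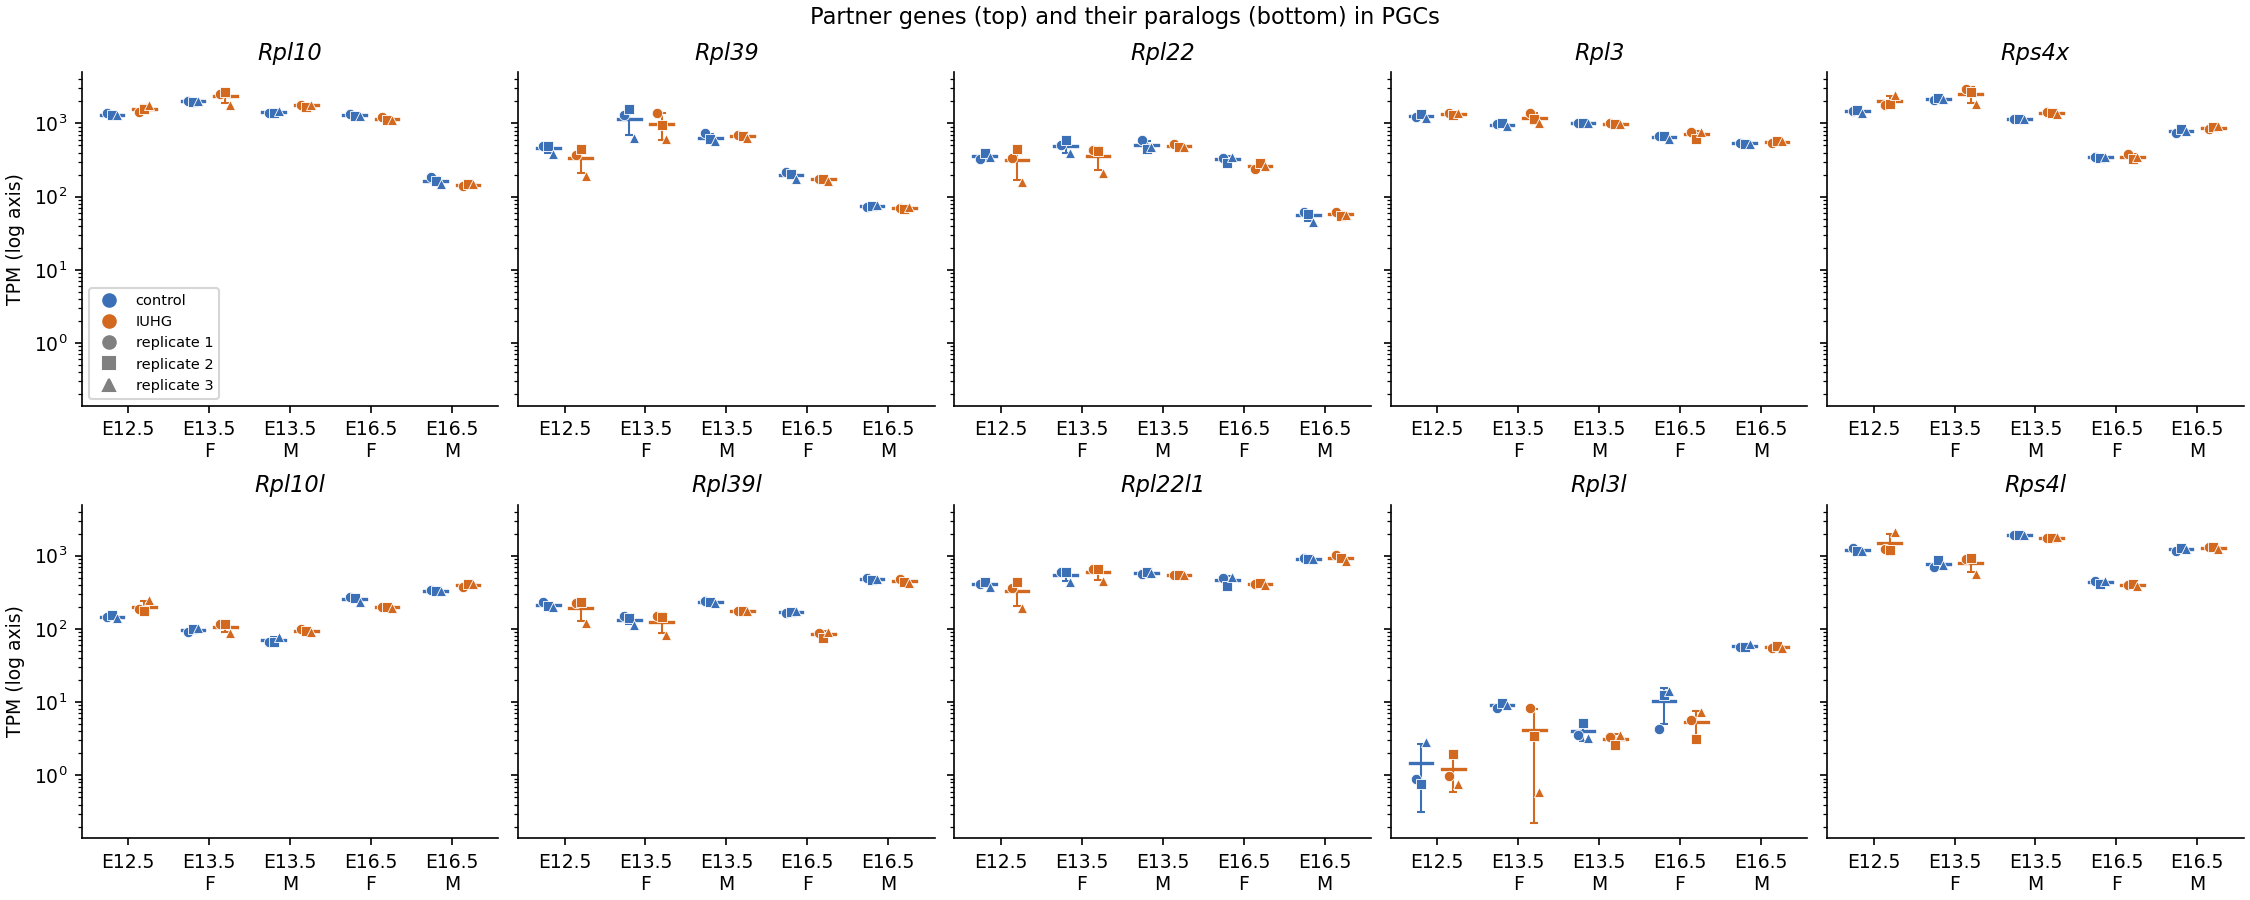
TPM (log axis) of 5 partner genes (top) and their paralogs (bottom) in control (blue) and IUHG (orange) PGCs by stage and sex; points are libraries, lines are means and bars SD (n = 3). In E16.5 males *Rpl10*, *Rpl39* and *Rpl22* sit at their lowest control levels (means under 200 TPM) while *Rpl10l*, *Rpl39l*, *Rpl22l1* and *Rpl3l* sit at their highest.

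Between the sexes at E16.5, 15 members were higher and 63 lower in females, against 36.1% and 42.2% of all tested genes. The median was -0.71 for members and -0.11 for all genes, and -1.07 and -0.40 with median-of-ratios scaling. The members higher in females with the lowest p were *Rpl10* (2.98, SE 0.068, limma adjusted p = 6.1e-14), *Rps23* (2.56) and *Rps27l* (2.07). Lower in females were *Rps3a1*, at 718, 752 and 715 TPM against 2692, 2594 and 2550 TPM in males (-1.84, SE 0.042, limma adjusted p = 5.4e-14), *Rpl6* (-1.63) and *Rps16* (-1.51). The genes named here as lower in females had no overlap between the sexes.

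The 8 paralogs (*Rpl3l*, *Rpl7l1*, *Rpl10l*, *Rpl22l1*, *Rpl36al*, *Rpl39l*, *Rps4l* and *Rps27l*) together took 3.65% to 6.84% of the ribosomal protein TPM in PGC libraries and 0.918% to 1.01% in gonads. *Rpl10l* had 12.1 to 14.4 TPM and *Rpl39l* 7.71 to 18.2 TPM in control gonads. *Rps27l* had 138 to 159 TPM in control gonads and 2395 to 2709 TPM in control PGCs at E12.5. These gonads and PGCs were made into libraries with different kits and quantified apart, so the levels are set side by side without a test. The 4 X-linked members *Rpl10*, *Rpl36a*, *Rpl39* and *Rps4x* took 6.37% ± 0.236 of the ribosomal protein TPM in control gonads (SD, n = 3). In control PGCs their share was 3.53% ± 0.0707 at E12.5, 5.65% ± 0.283 in E13.5 females, 2.66% ± 0.0219 in E13.5 males, 2.99% ± 0.0107 in E16.5 females and 1.29% ± 0.0187 in E16.5 males. It was higher in females than in males at both stages, without overlap.

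With IUHG the share of all ribosomal protein genes overlapped with control in 4 of the 6 contexts. In female PGCs at E16.5 it was 8.43%, 7.70% and 7.80% in control and 7.36%, 7.25% and 7.10% in IUHG libraries, which did not overlap. In E16.5 males it was 11.3%, 11.6% and 11.7% against 11.0%, 11.1% and 10.8%, also without overlap. Relative to control the means fell by 9.23% and by 4.72%. In E13.5 males (16.2% ± 0.648 and 16.1% ± 0.276), E12.5 PGCs (11.2% ± 0.444 and 10.4% ± 1.48) and gonads (10.2% ± 0.233 and 10.3% ± 0.285; SD, n = 3) the groups overlapped.

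In IUHG E16.5 female PGCs more members fell than rose. Of 89, 14 fell and 1 rose, where 3.08% of all tested genes fell and 2.56% rose. All 10 called genes of the large subunit fell, as did 4 of the 5 of the small subunit. The median log2 difference was -0.16 for members and 0.04 for all genes, and in 38 members every IUHG library was below every control library, which held for 14.1% of all genes (4 were above, against 14.9%). Without IUHG replicate 3, the shallowest library, 2 fell and 1 rose, where 0.610% and 0.292% of all genes did. Without control replicate 1, 2 or 3 the number that fell was 4, 4 and 5, where 1.08%, 0.621% and 0.754% of all genes fell. With all 10 PGC groups in 1 fit 7 members fell and 2 rose, where 12.54% and 13.2% of all genes did, so the members' share of lower calls was then below that of all genes. Of the 9 marker lists 3 had sums that did not overlap, interstitial (22.8 to 66.9 TPM in control, 87.2 to 122 TPM in IUHG), entry into meiosis (6678 to 7157 and 7480 to 9246 TPM) and Sertoli (2.67 to 4.63 and 1.46 to 2.16 TPM). Their part in these differences was not tested.

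*Rpl39l* fell most, from 166, 170 and 173 TPM to 87.2, 75.4 and 91.5 TPM, a level 2.00 times lower on the log2(TPM + 1) scale (SE of the log2 difference 0.111, limma adjusted p = 0.0024). Its partner *Rpl39* did not pass the test, at 214, 201 and 173 against 176, 175 and 165 TPM. *Rpl39l* separated the groups fully, while in *Rpl39* the lowest control library lay between the IUHG libraries. *Rplp0* went from 1351, 1398 and 1231 to 944, 1042 and 904 TPM (-0.46, limma adjusted p = 0.012). *Rpl8*, near the peptidyl transferase center, fell by 0.48 (limma adjusted p = 0.011) and *Rps10* by 0.59 (limma adjusted p = 0.014). *Rpl10l* was also lower, at 201, 201 and 192 TPM against 276, 261 and 236 TPM (-0.38, limma adjusted p = 0.048), so 2 of the paralogs were among the genes that fell. The 8 paralogs together took 6.03% ± 0.138 of the ribosomal protein TPM in control and 6.40% ± 0.381 in IUHG E16.5 females (SD, n = 3), without overlap. The highest control library was at 6.131% and the lowest IUHG library at 6.136%. *Rps27l* had the most TPM of these paralogs, with means of 2960 and 3044 TPM, while each of the other paralogs had a lower mean in IUHG. The share of the 8 paralogs was also higher in IUHG E13.5 males (3.98% and 4.27%) and E16.5 males (3.67% and 3.98%), lower in E13.5 females (4.72% and 4.28%), each without overlap, and overlapped at E12.5 and in gonads. In E13.5 males the mean of *Rps27l* went from 2518 to 3110 TPM, those of *Rpl10l* and *Rpl36al* were also higher, and the rest were lower. In E13.5 females *Rps27l* went from 3423 to 2272 TPM, while the means of *Rpl10l*, *Rpl22l1* and *Rps4l* were higher and the rest lower.

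In IUHG E13.5 male PGCs 11 members rose and 13 fell, close to 15.2% and 18.0% of all tested genes (6 and 7 of the large subunit, 5 and 6 of the small). The median was -0.02 for members and for all genes alike. With median-of-ratios scaling 13 rose and 4 fell, where 17.0% of all genes rose and 17.0% fell, and with FPKM 13 rose and 5 fell, where 19.3% and 19.1% did. With all 10 PGC groups in 1 fit 1 rose and none fell, where 4.24% and 4.48% of all genes did, and without the filter on low genes 6 rose and 3 fell, where 4.04% and 4.57% did. In 16 members IUHG libraries were all above and in 23 all below control, against 21.8% and 25.4% of all genes. Without IUHG replicate 1 the number called was 10, and without IUHG replicate 2 it was 14, where 25.9% and 25.4% of all genes were called. Of the 9 marker lists 7 had sums that did not overlap. Higher in IUHG were entry into meiosis (194 to 213 TPM in control, 316 to 358 TPM in IUHG), endothelial (46.7 to 52.3 and 73.2 to 83.5 TPM) and pregranulosa (2.62 to 3.28 and 3.51 to 4.88 TPM). Lower were germ cells (9185 to 9885 and 7959 to 8266 TPM), Sertoli (10.8 to 11.7 and 7.68 to 9.86 TPM), interstitial (7.61 to 8.61 and 2.67 to 4.22 TPM) and erythroid (2.02 to 76.2 and 0.916 to 1.36 TPM). Their part in these differences was not tested.

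The lowest p belonged to *Rpl30*, a large subunit gene whose protein lies at the subunit interface, at 1375, 1311 and 1317 TPM in control and 913, 935 and 895 TPM in IUHG males (-0.55, SE 0.038, limma adjusted p = 9.6e-06). *Rpl39l* fell from 240, 234 and 227 to 176, 175 and 173 TPM (-0.42, limma adjusted p = 1.1e-04), and *Rps4l* and *Rpl7l1* fell by 0.14 and 0.19. *Rps2* fell by 0.37 (limma adjusted p = 2.0e-04). The 12 genes named as processed copies of *Rps2* summed to 14.2 ± 1.44 TPM in control and 506 ± 20.4 TPM in IUHG males (SD, n = 3), and with them added the log2 difference of *Rps2* was 0.11 (limma adjusted p = 0.084). Among those that rose, *Rps4x* went from 1148, 1134 and 1143 to 1419, 1373 and 1362 TPM (0.28, SE 0.035, limma adjusted p = 3.6e-04) and *Rpl10* from 1385, 1404 and 1477 to 1799, 1697 and 1775 TPM (0.31, limma adjusted p = 4.8e-04). Both are X-linked. *Rps27l*, *Rpl26* and *Rpl17* rose by 0.30, 0.26 and 0.23, and *Rpl10l* by 0.42.

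In IUHG E16.5 male PGCs 5 members rose and 2 fell, against 3.38% and 2.54% of all tested genes. The median was -0.04 for members and 0.04 for all genes, and 8 members were fully above and 21 fully below control, against 17.8% and 12.0% of all genes. The split depended on scaling, with 3 higher and 5 lower under median-of-ratios scaling (2.32% and 3.27% of all genes) and 3 and 3 under quantile normalization (2.60% and 3.01%). With FPKM in place of TPM it turned over, to 3 higher and 8 lower, where 3.33% and 5.39% of all genes were. Without control replicate 2 or 3 or IUHG replicate 2 there were 2 calls, where 0.792%, 1.54% and 0.717% of all genes were called, and without IUHG replicate 3 there were 3, where 2.81% were. With all 10 PGC groups in 1 fit 2 rose and none fell, where 3.02% and 2.16% of all genes did. Of the 9 marker lists 5 had sums that did not overlap. Higher in IUHG were entry into meiosis (335 to 348 TPM in control, 371 to 398 TPM in IUHG) and interstitial (22.2 to 40.7 and 42.2 to 45.1 TPM). Lower were Sertoli (10.8 to 11.9 and 8.67 to 10.3 TPM), endothelial (20.7 to 22.8 and 16.1 to 18.75 TPM) and macrophage (162.5 to 183 and 122 to 132 TPM, most of it *Fcer1g* as given above). Their part in these differences was not tested.

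*Rps3a3* rose from 6.14, 6.67 and 5.52 TPM to 128, 150 and 176 TPM in these males (4.41, SE 0.125, limma adjusted p = 1.1e-06). The same gene rose in E16.5 females, from 2.09, 0.868 and 1.78 to 25.6, 18.2 and 21.6 TPM (3.16, SE 0.302, limma adjusted p = 0.0011), and fell at E12.5, from 167, 184 and 173 to 81.9, 101 and 98.2 TPM (-0.90, SE 0.106, limma adjusted p = 0.0045). It lies on chromosome 13 (mm39, 108807137 to 108807931), and RefSeq lists it as a pseudogene. Whether reads were shared with *Rps3a1* or other close copies was not tested. Without the members that RefSeq lists as pseudogenes, a choice made after seeing the data, 3 members rose and 2 fell in E16.5 males, none rose and 14 fell in E16.5 females, and the called member at E12.5 drops out. *Rps3a1* itself had 2692, 2594 and 2550 TPM in control and 2482, 2565 and 2690 TPM in IUHG E16.5 males, with overlap.

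Smaller differences in E16.5 males included *Rps3a2*, which rose by 0.74 (limma adjusted p = 0.020), *Rpl7l1* by 0.30 (limma adjusted p = 0.036) and *Rpl5* by 0.19 (limma adjusted p = 0.048). *Rpl10l* rose from 336, 331 and 325 to 377, 412 and 410 TPM (0.27, SE 0.056, limma adjusted p = 0.029), while *Rpl10* was at 184, 161 and 148 against 138, 150 and 150 TPM. Their ratio was 2.02 ± 0.193 in control and 2.74 ± 0.00515 in IUHG males (SD, n = 3), without overlap. *Rps18*, at the head of the small subunit, fell from 2734, 2419 and 2531 to 1898, 1823 and 1634 TPM (-0.52, SE 0.067, limma adjusted p = 0.0064), and *Rpl26* fell by 0.39 (limma adjusted p = 0.016).

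At E12.5, *Rps3a3* was the single member called, where 0.697% of all tested genes fell and 0.879% rose. Without the filter on low genes no member was called there, where 0.0554% of all genes were. In 6 members IUHG libraries were all above and in 7 all below control, against 13.3% and 9.12% of all genes, and the medians were -0.25 and 0.04. Without IUHG replicate 3, 2 members rose and 4 fell, where 1.00% of all tested genes rose and 1.10% fell, and the members' median was -0.0040. Of the 9 marker lists 6 had sums that did not overlap at E12.5, where the labels give the sex as not determined. Male germ line (158 to 159 TPM in control, 80.6 to 103 TPM in IUHG), germ cells (7813 to 8475 and 6922 to 7726 TPM), entry into meiosis (174 to 189.99 and 153 to 165 TPM), Sertoli (2.80 to 4.03 and 1.75 to 2.104 TPM) and interstitial (5.55 to 7.28 and 0.660 to 1.37 TPM) were lower in IUHG, and endothelial (122 to 132 and 146 to 165 TPM) was higher. Their part in the E12.5 differences was not tested. In female PGCs at E13.5 no member passed the test, where 1.06% of all tested genes rose and 1.99% fell, and 3 had an unadjusted p under 0.05. The lowest adjusted p was 0.18, for *Rps27l*. In the E13.5 female libraries 4 of the 9 marker lists did not overlap, entry into meiosis (3597 to 3901 TPM in control, 969 to 1065 TPM in IUHG), interstitial (11.0 to 16.9 and 6.99 to 10.4 TPM), germ cells (5211 to 5464 and 5875 to 6531 TPM) and endothelial (50.8 to 69.5 and 89.2 to 209 TPM). Their part in these differences was not tested. There 6 members lay fully below control and none above, against 13.2% and 19.8% of all genes.

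The ribosomal protein share of IUHG E13.5 female PGCs was 13.1%, 12.7% and 7.04%, against 12.45%, 13.2% and 11.4% in control, so the low mean came from replicate 3. Without that library 5 members rose and none fell (limma), where 4.81% of all tested genes rose and 6.83% fell: *Rplp0* by 0.51, *Rpl5* by 0.47, *Rps4x* by 0.40, *Rpl10* by 0.39 and *Rpl6* by 0.38. The level of *Rplp0* was then 1356 and 1333 TPM in IUHG, against 890, 979 and 969 TPM in control. With all 10 PGC groups in 1 fit and replicate 3 kept, 7 members were called, 6 lower and 1 higher, where 11.9% of all tested genes were lower and 20.4% higher.

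**Figure D4:**
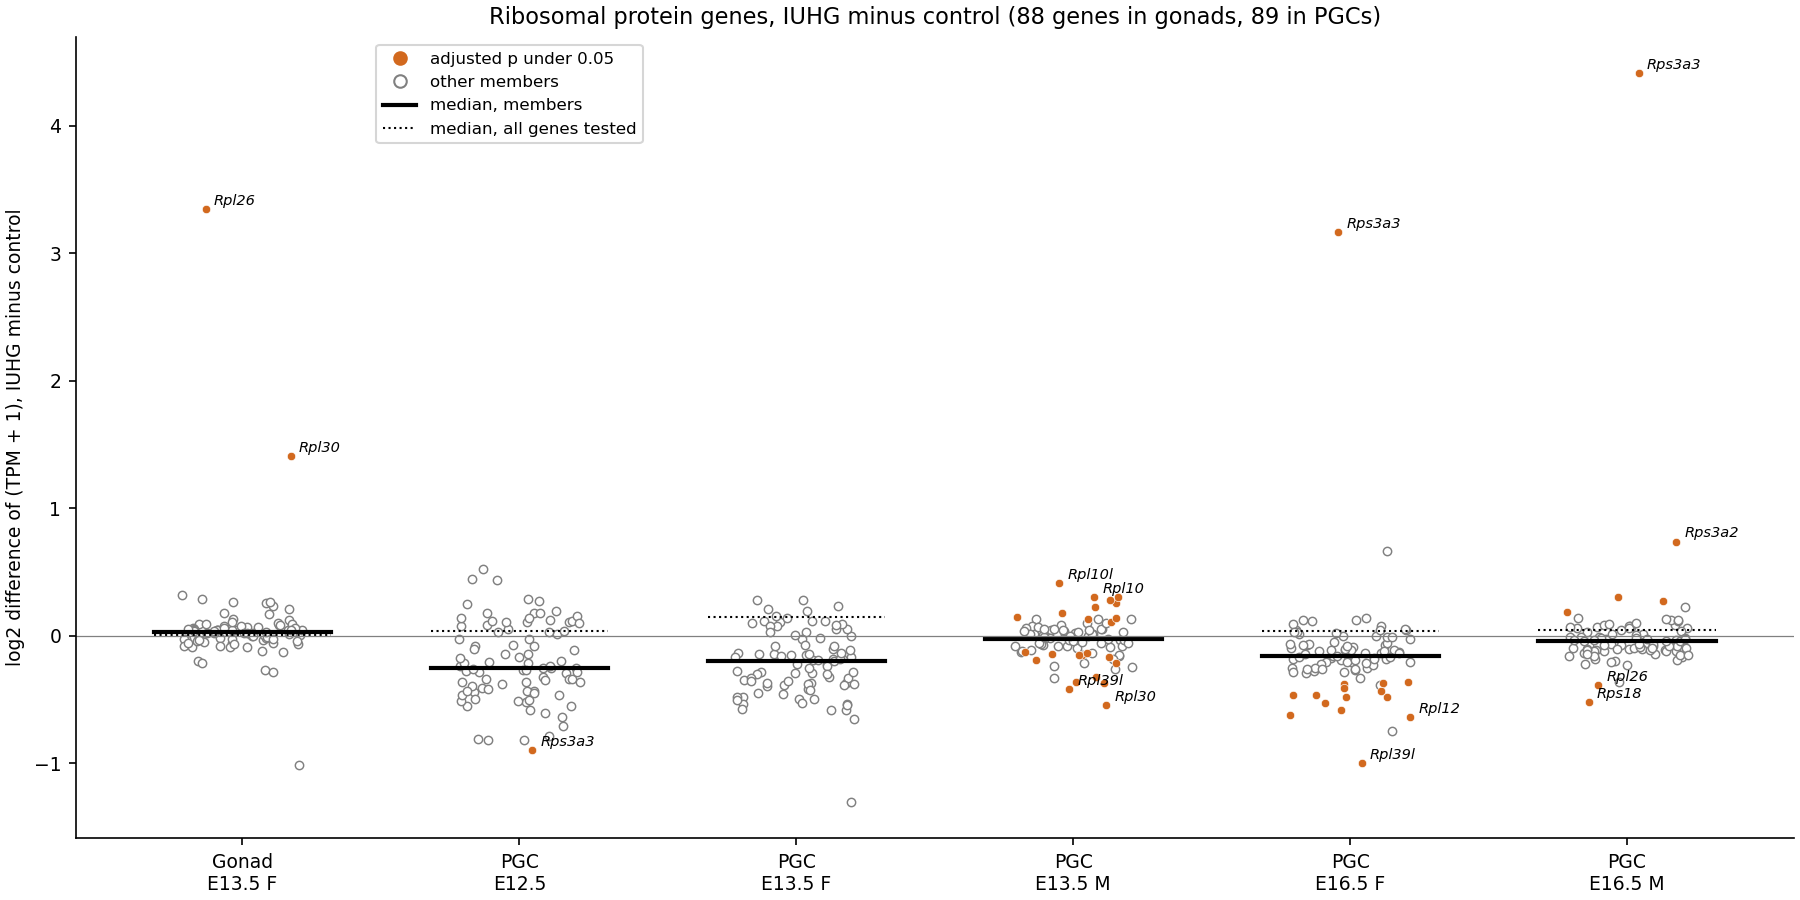
Log2 difference of (TPM + 1), IUHG minus control, of each member in gonads (88 genes) and 5 PGC contexts (89 genes); filled points had an adjusted p under 0.05, thick lines are medians of the members, dotted lines medians of all genes tested, and up to 2 called members on each side are named. *Rpl26* in gonads (3.35) and *Rps3a3* in E16.5 females (3.16) and males (4.41) stand far from the other members.

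The share of the 4 X-linked members within ribosomal protein TPM was higher with IUHG in each of the 5 PGC contexts, without overlap of libraries. The mean went from 3.53% to 4.45% at E12.5, from 5.65% to 6.65% in E13.5 females and from 2.66% to 3.08% in E13.5 males. The IUHG libraries had 3.93%, 3.99% and 5.43% at E12.5 and 6.57%, 6.13% and 7.26% in E13.5 females, so replicate 3 was highest in both, and the groups were also apart without it. At E16.5 it went from 2.99% to 3.09% in females and from 1.29% to 1.44% in males. In E16.5 females the highest control library was at 3.00% and the lowest IUHG library at 3.04%, and in gonads (6.37% and 6.38%) the groups overlapped. The summed TPM of these genes was higher in IUHG without overlap at E12.5 (3732 to 4085 in control, 4265 to 4742 in IUHG) and in E13.5 males (4218 to 4517 and 4886 to 5045). It overlapped in E13.5 females (6067 to 7653 and 5107 to 8603), E16.5 males (1431 to 1522 and 1500.0 to 1653) and E16.5 females (2296 to 2531 and 2163 to 2348), so in 3 of the 5 contexts the share was apart while the sum was not. The E12.5 pools differed in male germ line markers as given above. The genes did not all take part: *Rpl39* did not pass the test in any IUHG comparison, and *Rpl10* and *Rps4x* passed it in E13.5 males.

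The difference between IUHG responses was tested as an interaction. Between the sexes at E13.5 no member was called, where 9.88% of all tested genes were (limma), and 3 members had an unadjusted p under 0.05. Between E16.5 and E13.5 females 1 member was called, against 6.17%. Without IUHG replicate 3 of E13.5 females the response was more positive in females than in males for 14 members and more negative for 3, where 10.0% and 10.9% of all tested genes were. In that fit 1 member had a more positive and 18 a more negative response at E16.5 than at E13.5 in females, where 5.70% and 3.92% of all genes did. Without IUHG replicate 1 or 2 the first interaction had 2 members, both more negative in females, where 5.68% and 6.67% of all genes were. Between E16.5 and E13.5 males 7 members had a more positive and 11 a more negative response at E16.5, against 10.5% and 6.71% of all genes. With median-of-ratios scaling these were 4 and 20, where 7.01% and 8.83% of all genes were, and with FPKM 4 and 21, where 9.96% and 10.5% were. Without control replicate 2 or IUHG replicate 1 of E13.5 males 11 were called, where 12.8% and 13.2% of all genes were. At an adjusted p under 0.01 the 3 interactions had 0, 1 and 6 members, against 3.20%, 1.93% and 8.29% of all genes. Without the members that RefSeq lists as pseudogenes, a choice made after seeing the data, the male interaction had 4 more positive and 11 more negative members. Besides *Rps3a3* (4.28), which RefSeq lists as a pseudogene, the responses of *Rpl30* and *Rpl7l1* differed by 0.43 and 0.49, and those of *Rpl26*, *Rpl10* and *Rps16* by -0.64, -0.47 and -0.24. *Rpl26* was thus higher with IUHG in E13.5 males (0.26) and lower in E16.5 males (-0.39).

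In female gonads 2 members rose with IUHG and none fell, against 1.43% and 1.05% of all tested genes. Without the filter on low genes no member was called in gonads, where 0.0206% of all genes were. In bulk gonads fewer cells of a type and less RNA per cell cannot be told apart. The members' median was 0.03 and that of all genes 0.01, and 15 members were fully above and 5 fully below control, against 14.5% and 11.3% of all genes. The ratio of large to small subunit TPM was 1.30 ± 0.0255 in control and 1.36 ± 0.0164 in IUHG gonads (SD, n = 3), without overlap. Without *Rpl26*, *Rpl30* and *Rpsa*, picked because they differed between these groups, so that a smaller gap follows from the choice, the ratios were 1.37 ± 0.0374 and 1.37 ± 0.0226. Of the 9 marker lists 5 had sums that did not overlap in gonads. Germ cell sums were higher in IUHG (504 to 596 TPM in control, 665 to 821 TPM in IUHG). Erythroid (13954 to 17236 and 10974 to 12582 TPM), interstitial (2433 to 2673 and 1819 to 1954 TPM), macrophage (45.9 to 53.3 and 39.3 to 43.3 TPM) and Sertoli (32.97 to 230 and 24.2 to 30.4 TPM) sums were lower. Their part in these differences was not tested.

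*Rpl26* (ENSMUSG00000060938.14) had 76.3, 77.9 and 91.1 TPM in control and 637, 704 and 1307 TPM in IUHG gonads (3.35, SE 0.233, limma adjusted p = 9.6e-04). *Rpl30* (ENSMUSG00000058600.13) had 85.2, 88.7 and 96.5 TPM in control and 246, 180 and 314 TPM in IUHG gonads (1.41, SE 0.168, limma adjusted p = 0.0093). Both genes were well below the median member of control gonads, 1036 TPM. In control PGCs at E12.5 *Rpl26* had 1659, 1734 and 1616 TPM and *Rpl30* 684, 710 and 643 TPM. *Rpl26* has 6 genes named as its processed copies, whose sum was 4.39 ± 3.02 TPM in control and 3.18 ± 1.46 TPM in IUHG gonads. With these copies *Rpl26* reached 86.1 ± 7.35 TPM in control and 886 ± 368 TPM in IUHG gonads (SD, n = 3). *Rpl30* has 9 genes named as its processed copies, whose sum was 152 ± 5.32 TPM in control and 90.8 ± 33.2 TPM in IUHG gonads. *Rpl30* and its copies together reached 243 ± 5.10 TPM in control against 338 ± 54.5 TPM in IUHG gonads (SD, n = 3), a log2 difference of 0.46 (limma adjusted p = 0.049).

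Named processed copies carried far more TPM in gonads than in PGCs, which matters for the level of single members there. The 316 copies summed to 17817 to 21699 TPM in gonads and 1377 to 4233 TPM in PGCs. By the study's methods, PGC reads were kept only if they mapped uniquely, while no such step is described for gonads. Read handling and tissue thus differed together, and their parts in this gap cannot be told apart. *Rps18* had 146, 144 and 150 TPM in control gonads, while its 6 copies summed to 2094 ± 91.2 TPM. *Rpsa*, the laminin receptor of the small subunit, had 2670, 2602 and 2142 TPM in control and 937, 976 and 1969 TPM in IUHG gonads, without overlap. Its 12 copies had 832, 906 and 2040 TPM in control and 4885, 4333 and 2361 TPM in IUHG gonads, so the libraries with less *Rpsa* had more of its copies. *Rpsa* did not pass the test.

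**Figure D5:**
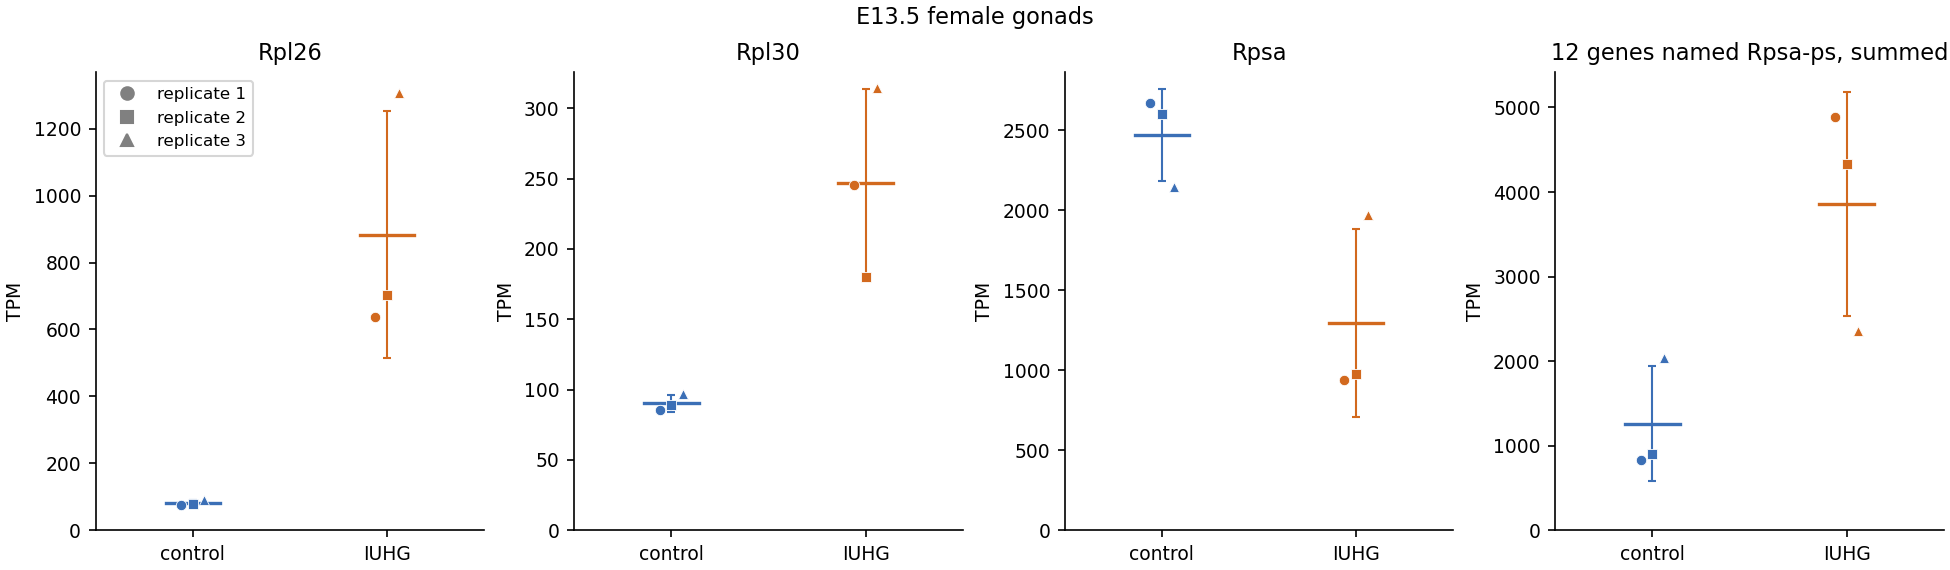
TPM of *Rpl26*, *Rpl30*, *Rpsa* and the sum of the 12 genes named as processed copies of *Rpsa* in control (blue) and IUHG (orange) E13.5 female gonads; points are libraries with a shape for each replicate number, lines are means and bars SD (n = 3). *Rpl26* and *Rpl30* were higher in each IUHG library, and *Rpsa* and its copies moved in opposite directions, with replicate 3 of each group nearest the other group.

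A stricter rule added the study's threshold of a log2 difference of 1, with an adjusted p under 0.05 in gonads and under 0.01 in PGCs, where the study's methods state that p threshold without naming an adjustment. By this rule, the members called with IUHG were 2 in gonads (0.612% of all genes), 0 at E12.5 (0.247%), 0 in E13.5 females (0.514%), 0 in E13.5 males (3.92%), 2 in E16.5 females (0.736%) and 1 in E16.5 males (0.201%). Most of the IUHG differences described were thus smaller than that size. Between control PGCs 5 members differed for E13.5 females and 13 for E13.5 males against E12.5 (25.6% and 15.3% of all genes). From E13.5 to E16.5 it was 27 in females and 29 in males (34.4% and 50.8%), and between the sexes 13 at E13.5 and 41 at E16.5 (29.5% and 54.8%).

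Genes that work with the ribosomal proteins were counted from lists. *Fau* encodes a ribosomal protein fused to a ubiquitin-like sequence, and *Rack1* encodes a scaffold on the small subunit. *Fau* was 1.51 lower in E13.5 female than male control PGCs and 0.86 lower than at E12.5. *Rack1* fell by 1.69 in males and by 1.25 in females from E13.5 to E16.5. With IUHG, *Fau* rose by 0.19 in E13.5 males (limma adjusted p = 0.018) and *Rack1* by 0.28 in E16.5 males (limma adjusted p = 0.045).

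Of 46 ribosome biogenesis genes, which build and export the subunits, 2 rose and 38 fell from E12.5 to E13.5 in females (median -0.92), where 39.7% of all tested genes rose and 20.3% fell. In males at this step 7 rose and 22 fell (median -0.29), where 24.2% of all genes rose and 27.5% fell. From E13.5 to E16.5 10 rose and 20 fell in females, where 42.3% and 24.5% of all genes did, and 9 rose and 28 fell in males, where 53.1% and 23.8% did. With IUHG the biogenesis list had 3 higher and none lower in E13.5 females (median 0.46), where 1.06% and 1.99% of all genes were, and 6 higher and 14 lower in E13.5 males (median -0.10), where 15.2% and 18.0% were. The IUHG response of 12 of the 46 was more positive in females than in males at E13.5 and that of none more negative, where 5.04% and 4.84% of all genes were. The counts that use E13.5 females include IUHG replicate 3, which stood apart, and are not given without it. The list had 2 higher and none lower in E16.5 females, where 2.56% and 3.08% were, 3 higher and 3 lower in E16.5 males, where 3.38% and 2.54% were, and 3 higher and none lower in gonads, where 1.43% and 1.05% were. Of 16 other factors with terminal oligopyrimidine mRNAs, 3 rose and 11 fell from E12.5 to E13.5 in control females, and 3 rose and 7 fell in males. From E13.5 to E16.5, 2 rose and 8 fell in females and 10 rose and 4 fell in males, against the all-gene shares given above for these steps. With IUHG none of the 16 rose and 3 fell in E16.5 females, where 2.56% and 3.08% of all genes did. In E13.5 males 2 rose and 1 fell, where 15.2% and 18.0% did. In E13.5 females 1 rose and none fell, where 1.06% and 1.99% did. In E16.5 males 1 rose and none fell, where 3.38% and 2.54% did. None of the 16 was called at E12.5 or in gonads. Of 77 mitochondrial ribosomal protein genes, which serve the separate ribosome of that organelle, 19 rose and 22 fell from E12.5 to E13.5 in control females. At that step 39.7% of all genes rose and 20.3% fell. In males 28 rose and 20 fell at this step, where 24.2% and 27.5% of all genes did. From E13.5 to E16.5, 37 rose and 23 fell in females, where 42.3% and 24.5% did. In males 25 rose and 38 fell, where 53.1% and 23.8% did. With IUHG 2 of the 77 rose and 6 fell in E16.5 females, where 2.56% and 3.08% of all genes did. In IUHG E13.5 males 20 of these 77 rose and 10 fell, where 15.2% and 18.0% did, and in E16.5 males 5 rose and 7 fell, where 3.38% and 2.54% did. In gonads 1 of the 77 rose and none fell, where 1.43% and 1.05% did, and none was called at E12.5 or in E13.5 females.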

How the data were processed

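The members and gene lists were chosen with earlier results of these data known. The deposited tables, which the authors made with StringTie (HISAT2 alignments for gonads, STAR for PGCs), gave each gene's TPM and FPKM, both corrected for transcript length, and its coverage. They held no read counts, so the fold thresholds were applied to limma rather than to the count test of the study. Per the methods the gonad reads were aligned to mm9, but gonad positions match GRCm38, and PGC positions are on mm39.

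Levels were analyzed as log2(TPM + 1), which understates the change of low genes. In each comparison, genes averaging 1 TPM or more in either group entered limma 3.58.1 (R 4.3.3, empirical Bayes with an intensity trend, two-sided), and p-values were adjusted over all of them by the Benjamini-Hochberg method. A call required an adjusted p under 0.05. IUHG was fitted within each context, and the 5 control PGC groups were fitted together. Named genes were the 5 members of lowest p in each direction for IUHG and the 3 for other comparisons, with the paralogs and their partners, X-linked members, stalk genes, *Rpl5*, *Rpl11*, *Rpsa*, *Rps27a*, *Fau* and *Rack1*. Others were chosen after their values were seen, and a few genes that the rule named are not reported here. Alternatives covered the unit, pseudocount (0.1), filter, scaling, thresholds, summed copies, the samples fitted, the replicate block and each library left out. Figures and summaries were made in Python 3.11.15 (numpy 2.4.6, pandas 2.3.3, matplotlib 3.10.9). Promoter windows were RefSeq's on GRCm38.p6.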

Additional observations from a re-analysis of the deposited data

Results flagged for a closer look

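Groups of 3 libraries are too small for a test of single outlying libraries, so the results given are responses to IUHG that differed between contexts by the interaction test of limma. Between E16.5 and E13.5 female PGCs this was *Rps3a3*, with a response 3.05 higher on the log2 scale at E16.5 (limma adjusted p = 1.1e-04).

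Between E16.5 and E13.5 male PGCs the response was more positive at E16.5 for *Rps3a3* (4.28), *Rps3a2* (0.73), *Rpl7l1* (0.49), *Rpl30* (0.43), *Rpl39l* (0.31), *Rps4l* (0.21) and *Rpl5* (0.20). RefSeq lists *Rps3a3*, *Rps3a2* and *Rps4l* among these as pseudogenes. Among the 11 with a more negative response were *Rpl26* (-0.64), *Rpl10* (-0.47), *Rps18* (-0.39), *Rpl11* (-0.29), *Rpl13* (-0.27), *Rpl15* (-0.25), *Rpl19* (-0.24), *Rps16* (-0.24), *Rps3* (-0.20) and *Rps27a* (-0.14).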

How the results depend on the processing

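The direction of the members' response to IUHG outside single genes was limited by 3 libraries a group and by TPM being a share. Of the called values of single genes, 2338 results under alternatives kept direction and threshold, 191 kept direction only and 7 reversed. The cause of the moves was not tested.

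Reversals under median-of-ratios scaling were *Rpl11* (-0.063) and *Rps27a* (-0.013) in E13.5 females against E12.5, *Rpl7* (-0.12) between the sexes at E13.5 and *Rpl3* (-0.090) at E16.5. Under quantile normalization *Rplp1* (0.047, sexes at E13.5) and *Rplp0* (0.032, sexes at E16.5) reversed, and with copies summed *Rps2* in IUHG E13.5 males (0.11).

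Members called without a filter were 0 in gonads, 0 at E12.5, 9 in E13.5 males, 3 in E16.5 females, 1 in E16.5 males and 9 in the male interaction, where 0.0206%, 0.0554%, 8.61%, 0.468%, 0.536% and 6.61% of all genes were. With all 10 PGC groups in 1 fit they were 2 at E12.5, 7 in E13.5 females, 1 in E13.5 males, 9 in E16.5 females and 2 in E16.5 males, where 1.74%, 32.3%, 8.73%, 25.7% and 5.18% of all genes were called. FPKM gave 11 in E16.5 males (3 higher and 8 lower), where 8.72% of all genes were called. Without members that RefSeq lists as pseudogenes, chosen after seeing the data, 0 were called at E12.5 and 0 in the interaction of females, as *Rps3a3* was the only call there. With fold thresholds they were 0 at E12.5, 0 in E13.5 males, 2 in E16.5 females, 1 in E16.5 males, and 5 (E13.5 females against E12.5), 13 (E13.5 males against E12.5), 27 and 29 (E16.5 against E13.5, females and males), 13 and 41 (sexes at E13.5 and E16.5) between controls. At an adjusted p under 0.01 the male interaction had 6. Quantile normalization gave 1 in the interaction of the sexes at E13.5. There 1031 of 17389 genes had a more positive and 1156 a more negative response. In the interaction of females it gave 4, where 873 and 665 of 20584 genes did.

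Replicate numbers did not pair the samples, with correlations of deviations from -0.0846 to 0.126 and 8 of 18 pairs best with their own number. With the replicate block the members called were 2 at E12.5, 4 in E16.5 males and 1 in the interaction of the sexes at E13.5, where 0.980%, 2.55% and 9.44% of all genes were.

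With named copies added the share was 12.0% and 12.4% in control and IUHG gonads, 16.4% in IUHG E13.5 males, 7.38% in IUHG E16.5 females, and 11.8% and 11.2% in control and IUHG E16.5 males.

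Leaving out each library gave 2 to 3 calls in gonads, 1 to 6 at E12.5, 0 to 5 in E13.5 females, 10 to 26 in E13.5 males, 3 to 16 in E16.5 females and 2 to 7 in E16.5 males. The interactions ranged from 0 to 17, 1 to 19 and 11 to 22, and the control comparisons from 55 to 66, 66 to 74, 68 to 80, 62 to 66, 70 to 74 and 77 to 79. IUHG and interaction counts that moved more than 1.5-fold without a library are given above with all-gene shares. The ranges alone carry no such share and are not read against one.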
